A study of Drosophila melanogaster with 2 samples.

Results

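The genes described here encode the subunits of the vacuolar ATPase (V-ATPase) of Drosophila melanogaster. Membership was set by symbol, as the protein-coding genes whose symbol is Vha followed by a digit or a capital letter, and there were 33 such genes among 13945 protein-coding genes on 6 chromosome arms. Glass, the protein of the gene gl, is a zinc-finger transcription factor known for its need in photoreceptor development, and its binding was measured by chromatin immunoprecipitation and sequencing (ChIP-seq). The tissue was whole pupae of 24 hour, males and females together, from 1 transgenic line that stably expresses Glass fused to GFP at the C terminus. The labels give 2 biological replicates of this single group and no other genotype, age or treatment, so no contrast between conditions can be made. In whole pupae, binding in few cells and weak binding in many cells cannot be told apart, and the eye was not separated from the rest of the animal.

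The V-ATPase is a rotary proton pump made of the cytosolic V1 sector, which hydrolyses ATP, and the membrane-bound V0 sector, which carries protons across the membrane. It acidifies endosomes, lysosomes, synaptic vesicles and lysosome-related organelles such as the pigment granules of the fly eye, and in insect epithelia such as the Malpighian tubules it also works in the plasma membrane. Several subunits have more than 1 gene in Drosophila, and the transcription factor Mitf is known to control V-ATPase genes in the fly. Of the 33 genes, 13 encode V1 subunits, 18 encode V0 subunits and 2 encode accessory proteins of the Ac45 kind.

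A gene was called bound when it, or the 1 kb to either side of it, held the summit of a peak. The sequence under 5 of the summits at V-ATPase genes is shown here so that the strongest of them can be read beside the weakest. The first 3 windows lie in Vha100-2, which encodes an isoform of the V0 subunit a, at chr3R:18397229-18397258, chr3R:18397430-18397459 and chr3R:18393560-18393660. The next lies in the 5′ UTR of Vha13, the gene of the V1 stalk subunit G, at chr3R:19644294-19644323, and the last in the 5′ UTR of VhaSFD, the gene of the regulatory V1 subunit H, at chr2L:16727673-16727702. All are on the plus strand of dm6, from the NCBI copy of the assembly. Windows in a UTR span 30 bases around the summit and the window in an intron spans 101 bases. Capitals mark GAGAGA, the motif of the GAGA factor, and no capitals mean that none of the motifs searched lies in the printed window.
Vha100-2 strongest summit: gctgtgagagcaataataatcttcagcttt
Vha100-2 neighbouring summit: gccGAGAGAgcgaacgagcggttgacattg
Vha100-2 intron summit: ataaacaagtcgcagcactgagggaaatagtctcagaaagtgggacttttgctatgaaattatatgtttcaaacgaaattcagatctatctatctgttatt
Vha13 summit: caaacttctctaattcctcgccgtggtgta
VhaSFD summit: ggctttcttgagacgacgctcggcacacac

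Binding strength was read from 4 deposited lists. The optimal list held 4809 peaks chosen by the authors. The pooled list and the list of each replicate held 30000 entries each, most of them weak. Every optimal summit at a V-ATPase gene had the same rank in the pooled list, so these 2 lists are not independent. A place in the optimal list also does not show that each replicate has an entry of its own close to the summit. The optimal summit of Vha100-2 at 18397445, for example, had no entry within 200 bp in replicate 1. The rank 49 entry of replicate 1, at 18397241, lay just beyond that distance. This optimal peak, from 18397349 to 18397486, overlaps the stronger one from 18397063 to 18397387. Within 500 bp, all 10 optimal summits at V-ATPase genes had an entry in both replicates. Entries were ranked within a list by the authors' signal value, with rank 1 the strongest, and signal values were never set against each other across lists. Read numbers are not given in the sources used here, and the depth behind each peak is therefore unknown. At gl itself, which lies 17584 bp from Vha100-2, the strongest optimal summit had rank 1537.

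Of the 33 V-ATPase genes, 6 had an optimal summit, which is 18.2%, against 23.1% of all protein-coding genes. Among the 11820 genes as long as the V-ATPase genes, between 494 and 11825 bp, the share was 19.6%. The bound genes were Vha100-2, Vha13, Vha14-1, Vha16-1, Vha36-2 and VhaSFD. With the summit required within 1 kb of the gene's own transcription start site (TSS), 5 genes remained, or 15.2%, against 17% of all genes and 15.3% of the genes of like length. Both shares lay near those of other genes, so the counts are no result particular to the V-ATPase.

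The replicates gave similar totals. Among the 4809 strongest entries of replicate 1, 5 V-ATPase genes had a summit, 15.2% against 22.8% of all genes. Among the 4809 strongest of replicate 2 there were 7, or 21.2% against 23.1%. The mean over the replicates was 18.2% ± 4.29 for V-ATPase genes and 23.0% ± 0.198 for all genes (SD, n = 2 each). Only 4 genes were in both sets, Vha100-2, Vha13, Vha14-1 and Vha16-1, which is 12.1% against 17.6%. With the summit within 1 kb of the own TSS, replicate 1 alone gave 3 V-ATPase genes, 9.09% against 16.7% of all genes, and replicate 2 alone gave 6, or 18.2% against 17.1%, so this count depends on the replicate.

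**Figure D1:**
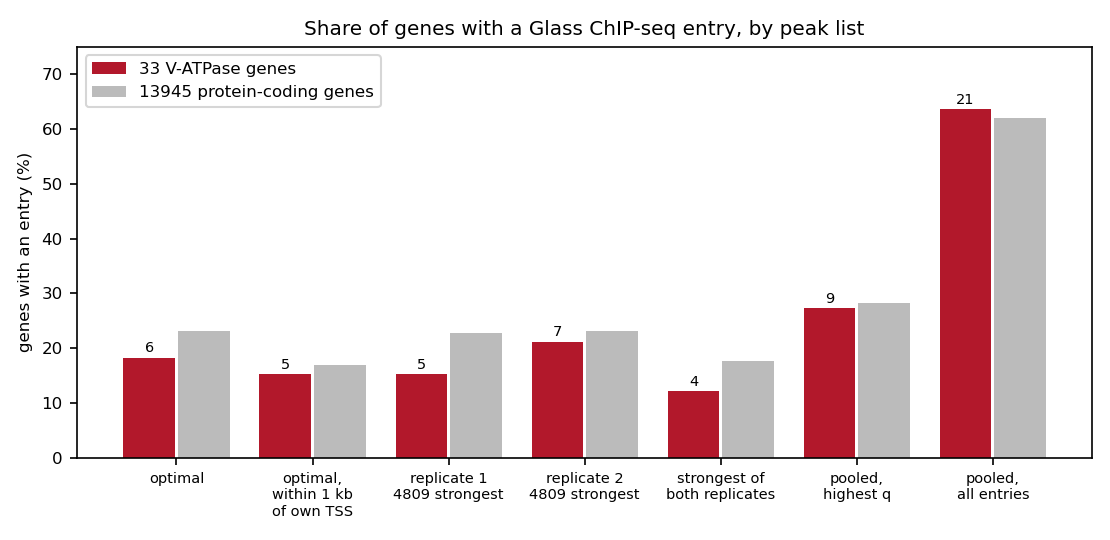
Share of genes with an entry in each peak list, in percent, for the 33 V-ATPase genes (red, with the number of genes above the bar) and for 13945 protein-coding genes (grey). In the optimal list the bars stand at 18.2% and 23.1%, and in the full pooled list at 63.6% and 62%.

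At lower strength most of the family was present, as were most genes. Entries of the pooled list with the highest −log10 q value, 4.10, lay at 9 V-ATPase genes, 27.3% against 28.2% of all genes. Any pooled entry lay at 21 genes, 63.6% against 62%, and within 1 kb of the own TSS at 17 genes, 51.5% against 55.1%. Replicate 1 had an entry of any strength at 23 genes, 69.7% against 61.2%, and replicate 2 at 24 genes, 72.7% against 64.5%. Counting the pooled and replicate lists together, 26 genes had an entry, 78.8% against 70.3%. The 62 pooled entries at V-ATPase genes had a median signal value of 54.4, and all pooled entries one of 53.0.

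**Figure D2:**
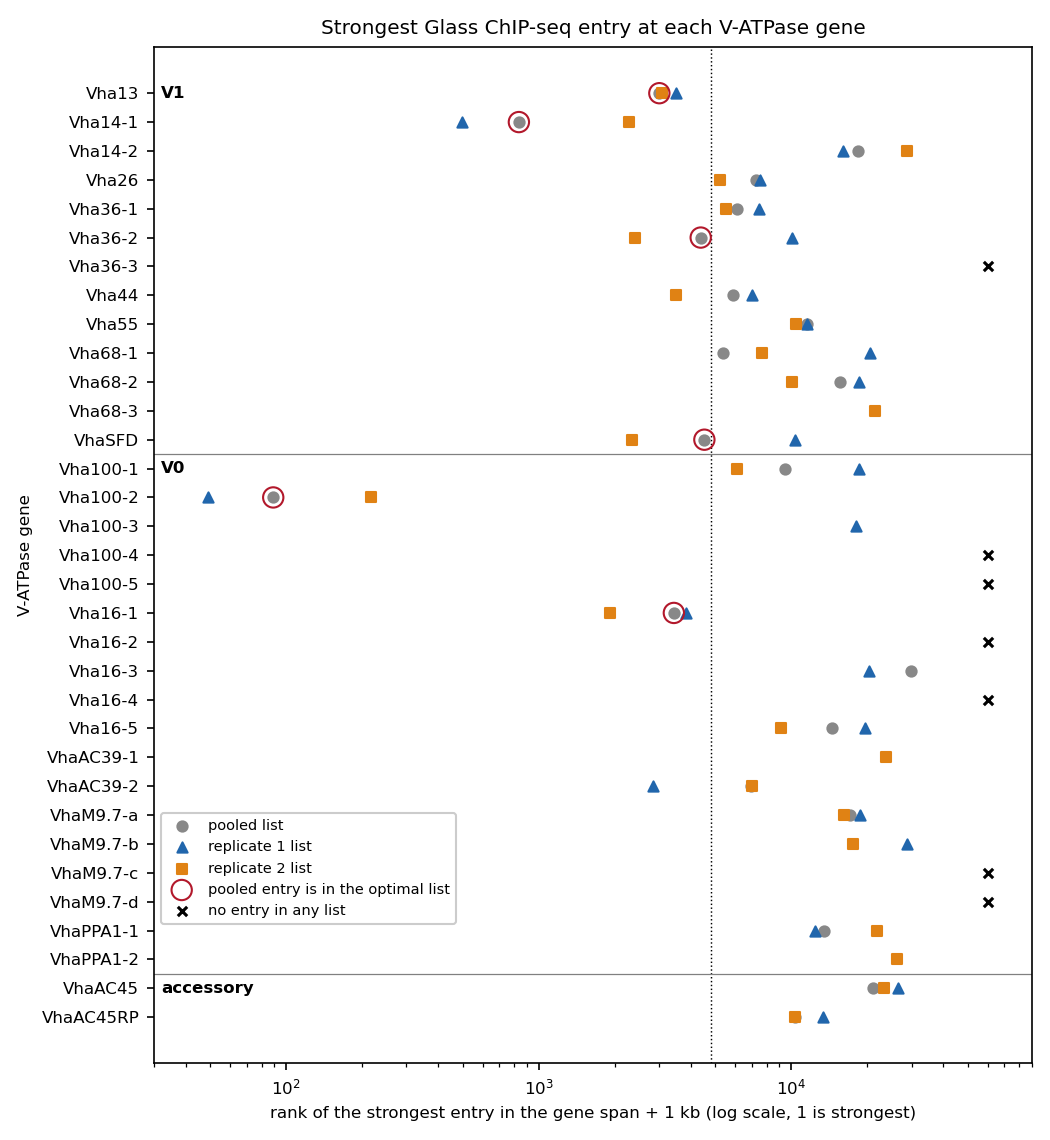
Rank of the strongest entry at each V-ATPase gene (log scale, 1 is strongest) in the pooled list (circles), the replicate 1 list (triangles) and the replicate 2 list (squares), with genes grouped into V1, V0 and accessory. Red rings mark the 6 genes whose pooled entry is in the optimal list, the dotted line stands at rank 4809, and crosses mark the 7 genes with no entry in any list.

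The strongest summit of the family lay within the span of Vha100-2. This gene lies on the minus strand at 3R, positions 18390323 to 18399169, and had 3 optimal summits. The strongest, at position 18397244, had a signal value of 1051 and rank 89 of 4809 in the optimal list. In the replicate lists it had rank 49 with a signal value of 726 in replicate 1, and rank 217 with 313 in replicate 2, so it was among the strongest entries of both. It lay in an intron of Vha100-2, 316 bp from the gene's nearest TSS, and also in the 5′ UTR of Vti1b, 249 bp from the TSS of that gene. Vti1b, which overlaps Vha100-2 on the opposite strand, is named for a SNARE protein of endosomal transport. Its TSS was the nearest, so the peak cannot be given to either gene by position.

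The other 2 optimal summits of Vha100-2 were weaker. The summit at 18397445, also in the 5′ UTR of Vti1b, had a signal value of 155 and rank 3599. It had rank 1300 in replicate 2 and no entry within 200 bp in replicate 1, where the rank 49 entry at 18397241 lay just beyond that distance. The summit at 18393610 lay deep in an intron, 3318 bp from the nearest TSS, which was that of Vha100-2 itself, and in the extended span of no other gene. It had a signal value of 187 and rank 2691 in the optimal list. Its rank was 1549 in replicate 1 and 9448 in replicate 2, so the replicates differed on whether it was among their strongest entries.

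Of the other isoforms of subunit a, Vha100-1, which is known to act in neurons and at photoreceptor synapses, had no optimal summit. Its strongest pooled entry had a signal value of 77.8 and rank 9479, in a coding exon, 1124 bp from its nearest TSS. In the replicate lists its strongest entries had rank 18515 in replicate 1 and rank 6128 in replicate 2. Vha100-3 had an entry in replicate 1 alone, at rank 18058. Vha100-4, which begins 517 bp from Vha100-2, had no entry in any list, and nor did Vha100-5. Among the 5 genes of subunit a, 1 thus had an optimal summit, Vha100-2, and its strongest summit was nearest to the TSS of Vti1b.

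Vha13, which lies on the minus strand at 3R, positions 19643018 to 19644386, had 1 optimal summit, at 19644309. The summit had a signal value of 175 and rank 3009 in the optimal list. It had rank 3495 with a signal value of 90.8 in replicate 1, and rank 3083 with 81.2 in replicate 2. The ranks in the 3 lists lay close together. The summit was in the 5′ UTR, 77 bp from the TSS of Vha13, and 717 bp upstream of Nup58, a nucleoporin gene.

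VhaSFD, on the minus strand at 2L, positions 16722883 to 16727826, had 1 optimal summit, at 16727688. It had a signal value of 132 and rank 4537, near the end of the optimal list, whose weakest peak had a signal value of 127. It had rank 10325 with a signal value of 41.1 in replicate 1, and rank 2348 with 94.4 in replicate 2, so only replicate 2 placed it among its 4809 strongest entries. The summit lay in the 5′ UTR, 138 bp from the gene's own TSS, and in the extended span of no other gene.

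Of the remaining V1 genes, Vha14-1, a gene of subunit F, and Vha36-2, a gene of subunit D, were bound beside their 3′ ends. Vha14-1 lies on the minus strand at 2R, positions 15679426 to 15680084. Its summit, at 15679203, had a signal value of 378 and rank 836, the second strongest of the family. It had rank 499 in replicate 1 and rank 2276 in replicate 2. The summit lay 223 bp past the 3′ end of Vha14-1 and 247 bp upstream of the TSS of Gmppa, which encodes a GDP-mannose pyrophosphorylase subunit. Because Vha14-1 is short, the summit was also within 1 kb of its TSS, at 881 bp.

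Vha36-2 lies on the plus strand at 2R, positions 12257282 to 12258652. Its summit, at 12259360, had a signal value of 135 and rank 4388. It had rank 10119 in replicate 1 and rank 2410 in replicate 2. The summit lay 708 bp past the 3′ end of Vha36-2 and 38 bp upstream of the TSS of Cam, the calmodulin gene. At both Vha14-1 and Vha36-2, then, the nearest TSS was that of a neighbour.

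Vha16-1, which encodes the proteolipid subunit c of the V0 rotor, was bound in its introns. It lies on the minus strand at 2R, positions 6625242 to 6633090, and had 3 optimal summits. The summit at 6628443 had a signal value of 160 and rank 3435, with rank 3832 in replicate 1 and rank 3431 in replicate 2. The summit at 6627678 had a signal value of 150 and rank 3748, with rank 7262 in replicate 1 and rank 1920 in replicate 2. The summit at 6632455, 71 bp from an own TSS, had a signal value of 134 and rank 4421, with rank 5173 in replicate 1 and rank 2832 in replicate 2. None of the 3 lay in the extended span of another gene. Of the other genes of subunit c, Vha16-3 and Vha16-5 had their strongest pooled entries at ranks 29790 and 14547, and Vha16-2 and Vha16-4 had no entry.

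**Figure D3:**
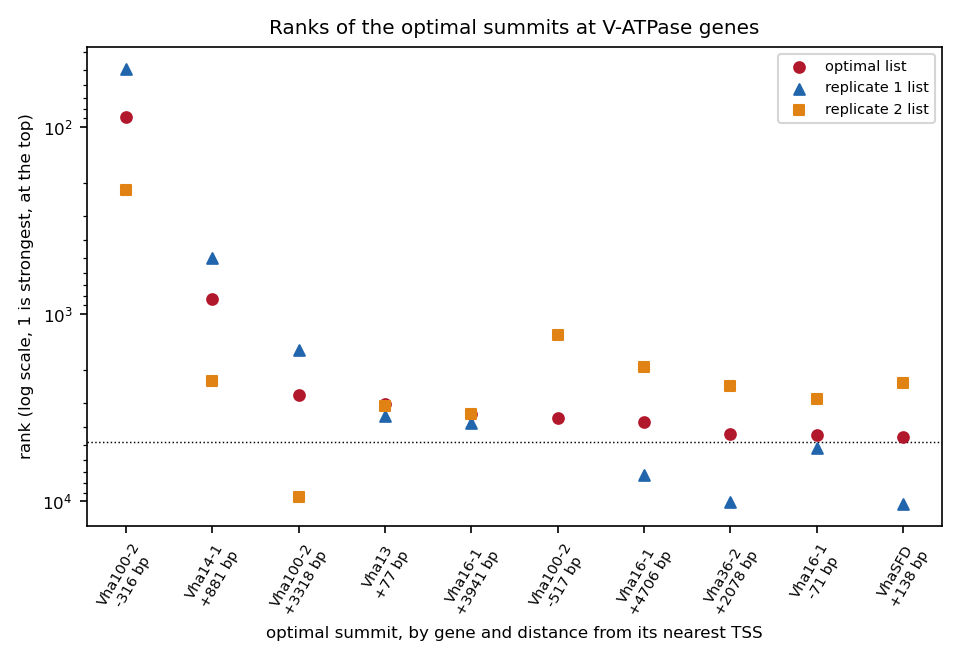
Ranks of the 10 optimal summits at V-ATPase genes (log scale, strongest at the top) in the optimal list (circles), the replicate 1 list (triangles) and the replicate 2 list (squares), with gene and distance from the gene's nearest TSS under each. The dotted line stands at rank 4809, and the Vha100-2 summit without a triangle has no entry within 200 bp in replicate 1.

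Among all 10 optimal summits at V-ATPase genes, 9 had an entry within 200 bp in both replicate lists. Only 4 were among the 4809 strongest entries of both replicates, or 40%, against 63.3% of all optimal peaks. They were among the strongest of replicate 1 in 5 cases, 50% against 83.3%, and of replicate 2 in 9 cases, 90% against 78.7%. The 10 summits came from 6 genes and had a median rank of 3517 in the optimal list. These shares were not matched for peak strength. The median over bound genes of the strongest optimal peak was a signal value of 167 for the 6 V-ATPase genes and 231 for the 3224 bound genes of all kinds, with median ranks of 3222 and 1931. On the strongest entries of replicate 1 the median ranks were 2846 and 1932.5, and on those of replicate 2 they were 2348 and 1918. Over all pooled entries they were 7250 and 7301. In the full list of replicate 1 they were 12390 and 7230, and in that of replicate 2 they were 8379.5 and 7610. The size of the gap thus depended on the list, and V-ATPase genes had the weaker median rank in every list but the full pooled one. Apart from Vha100-2 and Vha14-1, the genes with an optimal summit had peaks in the weaker part of the optimal list.

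Most of the summits lay inside the V-ATPase gene, though often with the TSS of another gene as the nearest. Of the 10 summits, 6 lay in an intron of the V-ATPase gene, 2 in its 5′ UTR and 2 outside it. The nearest TSS was that of the V-ATPase gene for 4 and that of another gene for 6, of which 2 lay in introns of Vha16-1, over 3 kb from the TSS of CG33919. In all, 5 summits lay in the extended span of another gene too. Of the 62 pooled entries, 35 were nearest to the TSS of their V-ATPase gene and 27 to that of a neighbour. Pooled entries within 200 bp of the own TSS were found at 13 of the 33 V-ATPase genes and at 37.7% of all genes, which are similar shares.

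**Figure D4:**
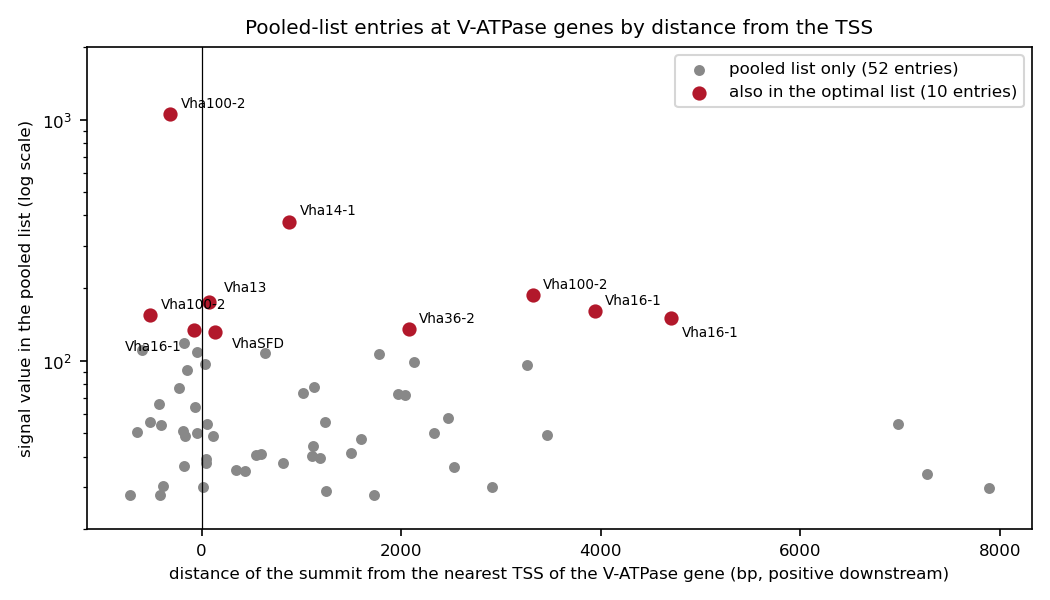
Signal value in the pooled list (log scale) against the distance of the summit from the nearest TSS of its V-ATPase gene in bp, positive downstream, for the 52 entries in the pooled list alone (grey) and the 10 also in the optimal list (red, named). The Vha100-2 entry at 1051 stands above all others, and 17 entries lie within 200 bp of the TSS.

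Of the 9 V1 genes without an optimal summit, 7 had a pooled entry. Vha68-1, a gene of the catalytic subunit A, had its strongest pooled entry at rank 5355 with a signal value of 118. The entry lay 180 bp upstream of its TSS, in the promoter region shared with mTor, the kinase of the TORC1 complex. Replicate 1 had no entry within 200 bp of it, and in replicate 2 it had rank 7662. Vha44, the gene of subunit C, had rank 5879 with a signal value of 111, and there the nearest TSS was that of Hmgs, the HMG-CoA synthase gene. Vha36-1, the second gene of subunit D, had rank 6084 with a signal value of 109, 49 bp upstream of its TSS and 23 bp from that of its neighbour CG8187, which was the nearest. These 3 were the only genes outside the optimal list with a pooled entry of the highest −log10 q value. Replicate 2 alone placed Vha44 among its 4809 strongest entries, at rank 3518.

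Vha26, the gene of subunit E, had rank 7250 and Vha55, the single gene of the nucleotide-binding subunit B, had rank 11531 in the pooled list. Vha68-2, a second gene of subunit A, had rank 15583, and Vha14-2 had rank 18346. Vha68-3, which begins 178 bp from Vha68-2, had an entry in replicate 2 alone, at rank 21454. Vha36-3 had no entry in any list. In sum, 4 of 13 V1 genes had an optimal summit, or 30.8% against 23.1% of all genes, and 11 had a pooled entry, or 84.6% against 62%. For 2 of the 4, Vha14-1 and Vha36-2, the summit lay outside the gene and nearest to the TSS of a neighbour.

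Of the 18 V0 genes, 2 had an optimal summit, or 11.1% against 23.1% of all genes, and 8 had a pooled entry, or 44.4% against 62%. The optimal counts of the sectors rest on 4 and 2 genes and were not tested against each other. V1 genes had a median span of 2508 bp and V0 genes one of 1327 bp, and the part of length in the counts was not tested. VhaAC39-2, a gene of subunit d, had its strongest pooled entry at rank 6940, in an intron of its neighbour unk, and only replicate 1 placed an entry there among its strongest, at rank 2846. VhaAC39-1 had an entry in replicate 2 alone, at rank 23832. VhaPPA1-1, a gene of subunit c'', had its strongest pooled entry at rank 13536, 25 bp from the TSS of RpS5b. A second pooled entry lay 45 bp upstream of its own TSS, at rank 16016. VhaPPA1-2 had an entry in replicate 2 alone, at rank 26344. Of the small subunit e genes, VhaM9.7-a had rank 17149, VhaM9.7-b had entries in the replicate lists alone, and VhaM9.7-c and VhaM9.7-d had none. The accessory genes VhaAC45 and VhaAC45RP had pooled entries at ranks 21069 and 10407 and no optimal summit.

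One grouping that crosses the sectors was made after the values were seen and is given as a count alone. A set of 13 genes, 1 for each subunit, is known to make up the plasma-membrane pump in renal epithelium. Of these 13, 5 had an optimal summit and none lacked an entry in every list. Of the 20 other V-ATPase genes, 1 had an optimal summit and 7 had no entry in any list. Among all genes, 23.1% had an optimal summit and 29.7% had no entry in any list. Nothing was tested on this grouping, and it supports no difference between the 13 genes and the 20. The median span was 3594 bp in the 13 genes and 1420.5 bp in the 20.

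The sequence around the summits was searched on both strands for 8 motifs, in windows of 101 bp. GAGAGA occurred at 3 of the 10 summits, 1 at Vha100-2 and 2 at Vha16-1, and in 7.88% of all optimal windows. The motif AGATAA, bound by zinc-finger factors such as serpent and pannier, occurred at 1, beside Vha14-1, and in 6.53% of all. The E-box CACGTG, its extension TCACGTG and the M-box TCATGTG, which has a different core, are bound by factors of the Mitf kind. They occurred at none of the 10 and in 0.915%, 0.395% and 0.936% of all. Neither the DREF motif TATCGATA, found in 0.416% of all windows, nor CAAAGTCC, in 1.95%, nor GAACCA or GAGCCA, in 6.36%, occurred at any of the 10. The last pair was searched as a candidate Glass core that was not checked against a binding matrix, so its absence says nothing of a Glass motif. Motifs that overlap were counted under each. The median GC content of the 10 windows was 48.0%, against 37.6% in all optimal windows.

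Promoters were taken as 300 bp, from 250 bp before to 50 bp after the 5′-most TSS. TCATGTG occurred in 4 of 33 V-ATPase promoters, 12.1% against 2.09% of all promoters, and those in VhaM9.7-b and VhaPPA1-1, which begin 22 and 34 bp after the TSS, are shown among the sites printed here. CACGTG occurred in 3 promoters, 9.09% against 4.2%, and TCACGTG in 1, or 3.03% against 1.14%. TATCGATA occurred in 2, 6.06% against 9.36%, GAGAGA in 2, 6.06% against 12.3%, AGATAA in 4, 12.1% against 18.7%, CAAAGTCC in none against 0.774%, and GAACCA or GAGCCA in 9, 27.3% against 19.6%. Of the genes whose promoter held TCATGTG, Vha14-1 was bound, and its summit lay outside that promoter. The lines that follow give, in capitals, TCATGTG in VhaM9.7-b and VhaPPA1-1, CACGTG in VhaAC45RP and TATCGATA in VhaSFD and Vha55, each in the direction of the gene. They lie at chr3L:21539874-21539900 on the plus strand, and at chr3R:14904012-14904037, chr3R:30166577-30166602, chr2L:16727832-16727859 and chr3R:12628001-12628028 on the minus strand.
VhaM9.7-b promoter: gacatgtccgTCATGTGatattcgttg
VhaPPA1-1 promoter: aaaatgtacgTCATGTGattgtggat
VhaAC45RP promoter: gttacagaaaCACGTGgcactcgaat
VhaSFD promoter: ctgctcgtcaTATCGATAttcttatata
Vha55 promoter: cttccaaattTATCGATAacatacggcg

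The V-ATPase was set beside other large complexes and beside other genes of the lysosome. An optimal summit lay at 18.2% of V-ATPase genes, at 64.1% of 92 cytosolic ribosomal protein genes, at 10.4% of 48 proteasome genes and at none of 15 mitochondrial ATP synthase genes. Among 24 other genes of the lysosome and of TORC1 on its surface, 7 had an optimal summit, or 29.2%, and 5 had one within 1 kb of their own TSS. Rbcn-3B, a regulator of V-ATPase assembly, had a summit in its 5′ UTR, 61 bp from the TSS, with a signal value of 293 and rank 1325. CtsB, a cathepsin gene, had one 36 bp from its TSS, with a signal value of 252 and rank 1713. Lamp1, a lysosomal membrane protein gene, had one 103 bp from its TSS, at rank 4048. Rbcn-3A, the partner of Rbcn-3B, had no optimal summit, and its strongest pooled entry had rank 11386. None of the 4 TORC1 genes of the list, mTor, raptor, RagA-B and RagC-D, had an optimal summit. At CtsL1 the summit lay in an intron, at rank 3121. At cathD, Npc2a and spin the nearest TSS was that of another gene. Mitf had no optimal summit and its strongest pooled entry had a signal value of 82.8 and rank 8759.

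**Figure D5:**
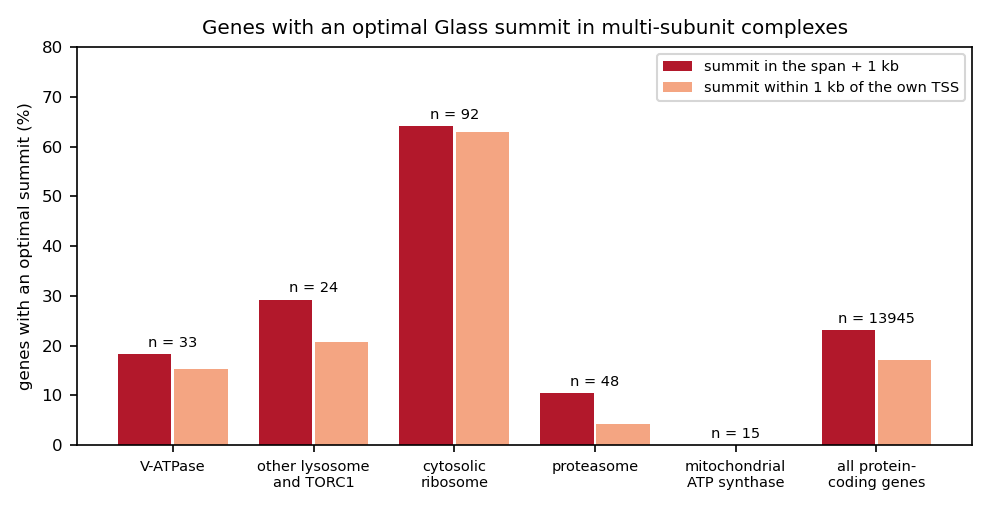
Share of genes, in percent, with an optimal summit in the span extended by 1 kb (dark) and within 1 kb of the own TSS (light), for the V-ATPase, other lysosome and TORC1 genes, 3 other complexes and all protein-coding genes, with the number of genes above each pair. The V-ATPase stands at 18.2% and 15.2%, all protein-coding genes at 23.1% and 17%.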

How the data were processed

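Peak lists for dm6 were deposited by the authors for each replicate, for the pooled replicates and, thresholded by the irreproducible discovery rate, as the optimal list. Peaks were ranked by the signal value deposited by the authors, and the −log10 q value was used as deposited. The aligner, peak caller and read numbers are not given in the sources used here. Per the labels, chromatin was sonicated to between 200 and 800 bp. The free-text label of both samples names an input control, while the antibody and assay fields name ChIP of gl, and they were treated as ChIP.

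Genes and TSSs came from Ensembl release 115, and sequence from the NCBI copy of dm6. All 33 genes have the same start and end in RefSeq. Summits were assigned to genes with pandas 2.3.3 and NumPy 2.4.6 on Python 3.11.15, the assignment was tested on simulated summits, and entries of different lists were matched within 200 bp. Coordinates are 1-based. With 1 group, counts and shares were set beside those of all protein-coding genes and no test was made. Every V-ATPase gene was accounted for, with values in each list for those with an optimal summit. Membership was set by gene symbol alone and used no measured value, but the choice of this family, like that of the lists, was made with earlier results of these data known.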

Additional observations from a re-analysis of the deposited data

How the results depend on the processing

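The count of 6 V-ATPase genes with an optimal summit was 4 with no extension of the span, 7 with 2 kb, 11 with 5 kb, 4 when each summit counted only for the gene with the nearest TSS, 2 on the stronger part of the optimal list, up to its median rank and 21 on every pooled entry. All genes stood at 12.8%, 28.4%, 41.3%, 15.6%, 13.6% and 62% under these settings. The 4809 strongest entries of replicate 1 alone gave 5 and those of replicate 2 alone gave 7, the counts already given above. The count of 5 at the own TSS was 4 within 500 bp, 3 within 200 bp and 2 on that stronger part. All genes stood at 17% as reported and at 13.8%, 9.8% and 9.18% under these settings. On the strongest entries of replicate 1 and of replicate 2 the count was 3 and 6, against 16.7% and 17.1% of all genes. The median signal value of 167 was 213 with 2 kb and 187 with 5 kb. The median rank of 3222 was 2846 on the strongest entries of replicate 1 and 2348 on those of replicate 2. These 2 ranks come from other lists and cover 5 and 7 genes. No peaks were called anew with a replicate left out. The number of summits with an entry in both replicates was 9 within 100 bp and 10 within 500 bp. No paired analysis was possible because the samples form a single group. The depth is unknown, and 2 replicates limit each SD.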

Other observations

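ATP6AP2, the gene of a further accessory protein of the pump that falls outside the choice by symbol, had no optimal summit. Its strongest pooled entry lay in its 5′ UTR, 38 bp from the TSS, with a signal value of 37.4 and rank 22042. In the replicate lists the strongest entries had rank 21723 in replicate 1 and rank 21953 in replicate 2.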
